A study of Mus musculus and Rattus norvegicus with 35 samples.

Results

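Of the 28482 circular RNAs in the deposited mouse table, 1678 carry no host gene symbol, and these host-less circRNAs are described here. They were taken by that blank alone, in any class, and are named by their mm9 coordinates. A circular RNA forms when a splice donor is joined to a splice acceptor that lies upstream of it, a reaction called back-splicing, and the closed ring has no free ends for exonucleases to attack. In mammals such rings are known to be plentiful in brain, and most are made of exons of protein-coding genes. The sources used here do not say what left the host symbol blank, so neither the transcript of origin nor the function of such a circle follows from the table.

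The samples are from C57BL/6 mice. Brain, testis, heart, liver and lung have 1 rRNA-depleted library from 14-week and 2 from 20-week animals each. Hippocampus has 2 libraries each at embryonic day 18 (E18) and postnatal days 1, 10 and 30 (P1, P10, P30). Single libraries cover 4-week hippocampal synaptosomes and the homogenate beside them, 4-week CA1 neuropil and somata dissected from slices, and 1 oligo-dT-selected (poly(A)) library of 14-week brain.

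The 27 rRNA-depleted libraries held 1231 to 43523 back-splice reads, with a median of 15927. Reads of host-less circles numbered 14 to 1794 per library, with a median of 328. The summed TPM of neuron markers (Snap25, Syt1, Gria2, Grin1, Rbfox3) was 2813 to 3244 in brain and at most 10.1 in the other tissues, and the marker lists of testis, heart, liver and lung were each highest in their own tissue. In bulk RNA, fewer cells of a type and less RNA per cell cannot be told apart.

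Host-less circles were sparsely read. Those in the deposited lists also had shorter genomic spans than host-bearing circles and lay mostly apart from the spans that host-bearing circles covered. The length of the spliced ring was not measured. Of the 1678, 1222 (72.8%) were of the class that the deposited lists call CBR, and the other 456 (27.2%) were in the table only, without class or strand. None was of the class MEA, which held 23461 (87.5%) of the 26804 host-bearing circRNAs. The lists do not spell these class names out. All 1222 listed members were single-block intervals, against 1351 (5.04%) of the host-bearing circRNAs. The host-bearing figure is over both classes, so class and host status are not separated in this comparison. Of those listed, 616 were on the plus strand and 606 on the minus strand.

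The span from acceptor to donor had a median of 7667 bases in host-less circles and 12594.5 bases in host-bearing ones. Within the CBR class the medians were 5445 and 19569 bases. Spans under 1 kb made up 274 (16.3%) of the host-less circles and 1976 (7.37%) of the host-bearing ones. The shortest host-less span was 101 bases and the longest 978673 bases. The 456 members outside the lists had a median of 16747 bases. That lies between the medians of host-bearing MEA circles (11864 bases) and host-bearing CBR circles (19569 bases).

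**Figure D1:**
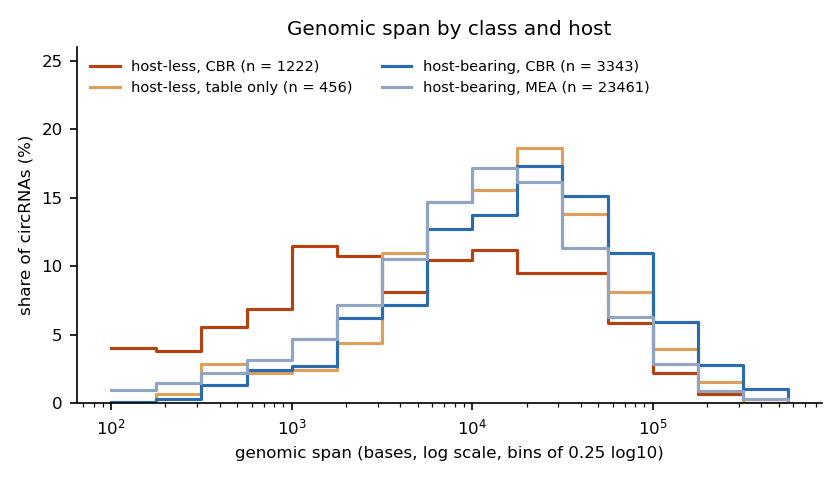
Share of circRNAs (percent) by genomic span in bases (log scale, bins of 0.25 log10), for host-less circRNAs of class CBR (n = 1222) and of the table only (n = 456), and host-bearing circRNAs of classes CBR (n = 3343) and MEA (n = 23461). The host-less CBR line lies above the others at spans under 1 kb.

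Few reads backed most members. A host-less circle had a median of 3 reads over all libraries and a host-bearing circle 4, and 825 members (49.2%) had exactly 2. At least 20 reads were reached by 72 members (4.29%), against 3435 (12.8%) host-bearing circles, and at least 100 reads by 10 members. The 12 members highest by mean RPM held 21.1% of all 10423 member reads. The best-read member had 338 reads, where the best-read host-bearing circle had 4619. Of the members, 419 (25.0%) were seen in a single rRNA-depleted library, against 8.17% of host-bearing circles. At such counts, absence from a library was mostly not distinguishable from a low level.

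Position was set against the spans covered by host-bearing circles, which are shorter than the genes themselves. Of the members, 606 (36.1%) overlapped such a span and 1072 (63.9%) did not. The share differed with class. Overlap was found for 253 of the listed members (20.7%), 229 of them on the host's strand and 24 on the opposite strand alone, and for 353 (77.4%) of those in the table only. Members without overlap lay a median of 159236 bases from the nearest host span, and 660 listed members (54.0%) lay over 100 kb away. An exact end was shared with a host-bearing circle by 146 members (8.70%), and both ends by 5.

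Members also shared ends with one another. That was so for 552 of them (32.9%), so they are not independent of each other. Chaining overlapping members of 1 strand gave 864 loci, of which 686 held 1 member, 178 held several and 23 held at least 5. By number of members the first was chr18:25937345-26370882 (plus strand), between Celf4 and Pik3c3, with 16 members and 81 reads. A locus with more reads, chr1:99079555-99198874 (plus strand) between Slco6b1 and D1Ertd622e, held 9 members and 502 reads. The locus chr3:120397338-120510588 (minus strand), between Ptbp2 and Tmem56, held 8 members and 418 reads. Loci with many members were therefore not always those with many reads.

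Across chromosomes the members followed the host-bearing circles loosely. Chromosome 7 held 125 members, 7.45% of them and 4.91% of host-bearing circles. Chromosome 11 held 4.05% and 6.60%, and chromosome 17 held 2.38% and 3.84%. The X chromosome held 50 members (2.98% and 2.44%), and the Y chromosome held 0 members and 28 host-bearing circles.

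By summed level, host-less circles were a larger share of the circular RNA of testis than of any other tissue. Testis had 1289 RPM at 14 weeks and 413 and 468 RPM at 20 weeks. Brain had 658 RPM at 14 weeks and 608 and 615 RPM at 20 weeks. The testis library at 14 weeks stood far above the 20-week libraries, which were both below brain. All circRNA, with or without a host, summed to 16727 RPM in testis at 14 weeks and to 6349 and 6973 RPM at 20 weeks. As a share of all circRNA RPM, testis had 6.97 ± 0.640% and brain 2.29 ± 0.317% (SD, n = 3 each). Liver had 2.2 ± 0.28%, lung 1.8 ± 0.27% and heart 1.02 ± 0.231% (SD, n = 3 each). The lowest testis library (6.51%) was above every library of the other tissues. The 14-week and 20-week testis libraries gave 7.70%, 6.51% and 6.71%, so the share was above every other tissue at both ages while the summed level was not. Within the CBR class alone, host-less circles made up 42.5 ± 1.61% of RPM in testis and 20.9 ± 3.12% in brain (SD, n = 3 each).

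**Figure D2:**
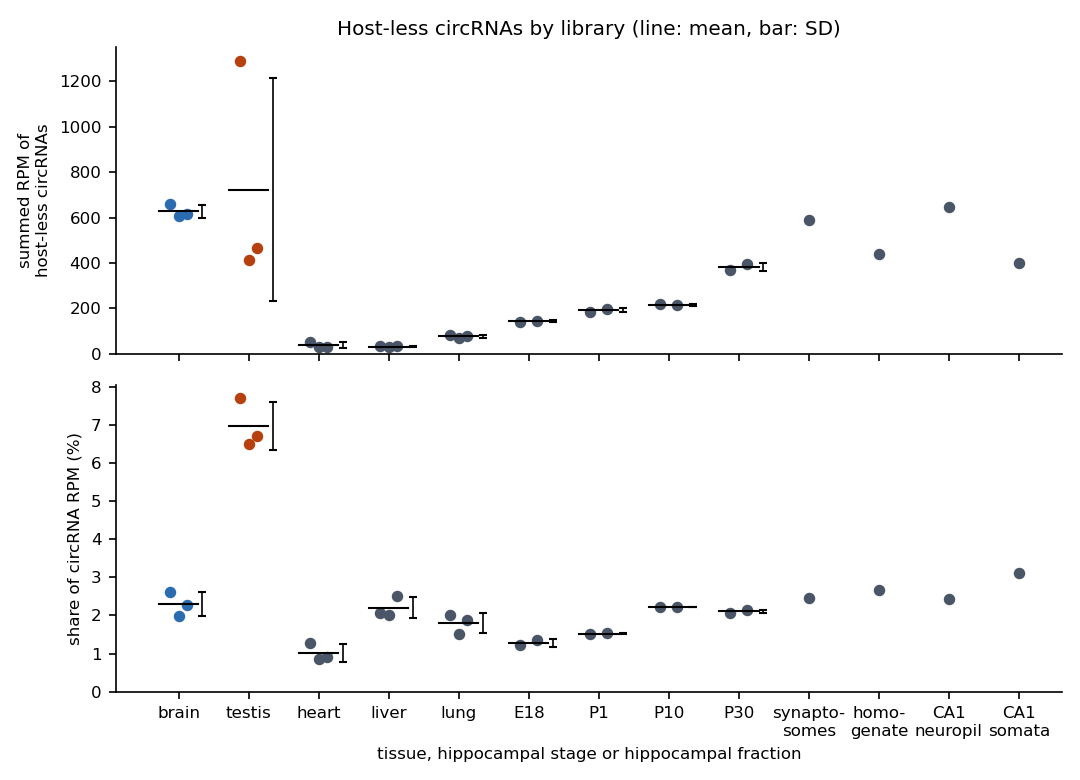
Summed RPM of host-less circRNAs (top) and their share of all circRNA RPM in percent (bottom) for each rRNA-depleted library, as points, with the group mean as a line and the SD as a bar where there are 2 or 3 libraries. The 3 testis libraries lie between 6.51% and 7.70%, above the libraries of every other group.

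The tissue in which a member was highest was most often testis. Of 1091 members with a read in a tissue library, 518 (47.5%) had their highest mean in testis, 462 (42.3%) in brain, 51 in lung, 35 in heart and 25 in liver. Of the 18552 host-bearing circles with a tissue read, 25.2% were highest in testis and 56.6% in brain. The testis and brain sets hardly met. Of 577 members read in testis and 489 read in brain, 51 were read in both, which is 8.84% of the testis set and 10.4% of the brain set. For host-bearing circles these shares were 46.8% and 32.5%. In no library of brain, hippocampus or hippocampal fractions were 410 of the testis members (71.1%) read, against 18.9% of host-bearing testis circles. The host-less circles had fewer reads each, and the part of depth in these overlaps was not tested.

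**Figure D3:**
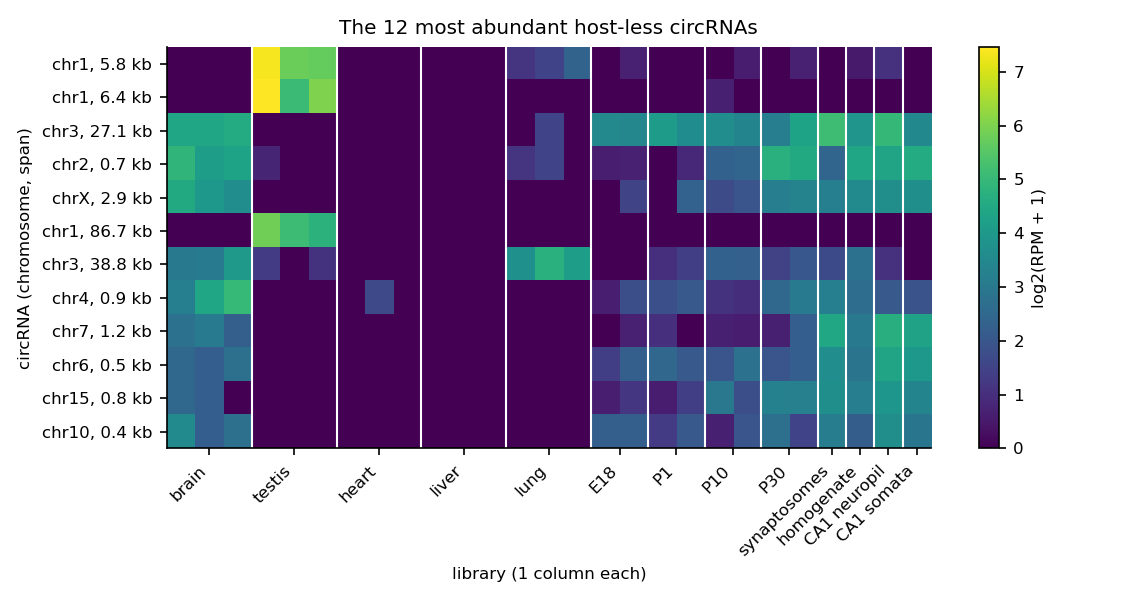
Level of the 12 host-less circRNAs with the highest mean RPM, as log2(RPM + 1), in each rRNA-depleted library (1 column each, grouped by tissue, stage or fraction). 3 circles of chromosome 1 are bright in testis and the others in brain and hippocampus, and the chr3 circle of 38.8 kb is bright in lung as well.

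Testis was then set against the 4 other tissues in a fit over all 847 circRNAs with at least 20 reads. Only 17 members passed that filter, and 1661 were not tested. Of the 17, 10 were higher in testis by limma (adjusted p under 0.05), where 24.9% of all circRNAs tested were. Lower in testis were 6, where 21.4% of all tested were. For 9 members every testis library was above every other library, where the groups did not overlap for 12.0% of all circRNAs tested. The median difference was 2.26 (log2) over the members tested and -0.08 over all circRNAs tested. A member that is high in a single tissue passes the filter through that tissue, so these counts describe the members that passed and no others.

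The highest 2 testis circles were a pair on chromosome 1. chr1:99079555-99085945 (plus strand, 6.39 kb) had 175, 32.8 and 63.4 RPM in the testis libraries (244, 29 and 55 reads), and 0 reads in all 12 libraries of the other tissues. Against the floor of 3 reads over those libraries it was at least 288-fold higher in testis, and the fitted difference was 5.95 ± 0.35 (log2, SE, limma adjusted p = 7.13e-09). A single read appeared in hippocampus, at P10. chr1:53674569-53680411 (minus strand, 5.84 kb), between Pms1 and Stk17b, had 162, 54.4 and 50.7 RPM in testis, against 1.24, 1.85 and 4.20 RPM in lung and 0 in brain, heart and liver. Its testis difference was 5.66 ± 0.35 (log2, SE, limma adjusted p = 1.07e-08). For both circles the 14-week library was the highest, and every testis library was above every other library. Total circRNA was also highest in that testis library, and an effect of age was not tested.

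The same acceptor-side coordinate recurred in a circle of longer span. chr1:99079555-99166234 (86.7 kb) starts at the same base as chr1:99079555-99085945 and had 56.0, 34.0 and 26.5 RPM in testis, with 0 reads in all other libraries. It was at least 124-fold higher in testis, with a difference of 5.02 ± 0.23 (log2, SE, limma adjusted p = 1e-09). Over its locus of 9 members, the summed level was 251 RPM in the 14-week testis library and 75.9 and 96.8 RPM in the 20-week ones, against 0 RPM in brain. These 2 circles overlap, share a start and were counted apart.

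On the X chromosome, chrX:64046008-64049747 (minus strand, 3.74 kb) overlapped the host symbols Mir741 and Mir881, microRNA genes of a cluster known from testis. It was the steadiest of the testis circles, with 20.8, 17.0 and 20.7 RPM in testis and 0 reads elsewhere, at least 62.2-fold higher (4.13 ± 0.18 log2, SE, limma adjusted p = 8.84e-10). chr13:97621611-97649078 (27.5 kb) had 20.1, 9.06 and 5.76 RPM in testis (3.29 log2, limma adjusted p = 1.19e-07). chr1:183520571-183536062 (15.5 kb), between Cnih3 and Dnahc14, had 20.8, 2.27 and 8.06 RPM (2.92 log2, limma adjusted p = 1.29e-05). Both had 0 reads in the other tissues and their highest value at 14 weeks, in the testis library with the highest circRNA total. chr1:132578726-132580647, between Zp3r and Pfkfb2, was read in a second tissue. It had 7.90, 3.40 and 3.46 RPM in testis and 2.31, 4.28 and 0 RPM in heart, so those groups overlapped (1.98 log2 in testis, limma adjusted p = 0.000358). The entry chr1:132578726-132580650, with the same start and nearly the same end, was counted apart among the testis calls. That entry averaged 7.89 RPM in testis and 0.623 RPM in the other tissues, and its groups did not overlap (2.39 log2, limma adjusted p = 0.000325). Without the 14-week testis library 11 members were testable and 4 were called higher, against 10.1% of all tested. With the 20-week libraries alone 8 were testable and 4 called higher, against 15.1% of all tested.

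**Figure D4:**
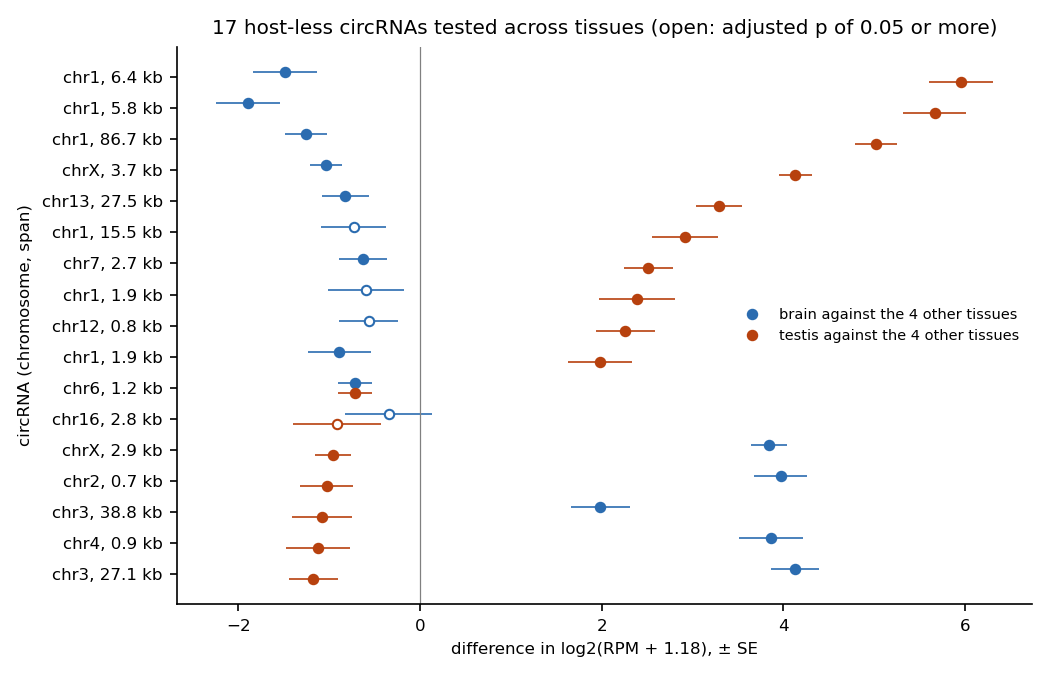
Fitted difference in log2(RPM + 1.18), with its SE as a bar, for the 17 host-less circRNAs tested across tissues, testis and brain each against the mean of the 4 other tissues. Open points have an adjusted p of 0.05 or more. The 10 circles that were higher in testis have brain differences below 0.

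Brain was set against the 4 other tissues in the same fit. Of the 17 members tested, 5 were higher in brain by limma (adjusted p under 0.05), where 69.8% of all circRNAs tested were. Lower in brain were 8, where 7.44% of all tested were, and these 8 passed the read filter through other tissues alone, so their count is not a result about host-less circles. The groups did not overlap for 4 members, where they did not for 42.7% of all circRNAs tested. The median difference was -0.63 (log2) over the members tested and 2.05 over all circRNAs tested. All 8 had 0 reads in the brain libraries. The 6 largest were the testis circles chr1:53674569-53680411 (-1.89 log2, limma adjusted p = 0.000205), chr1:99079555-99085945, chr1:99079555-99166234, chrX:64046008-64049747 and chr13:97621611-97649078, and the testis and heart circle chr1:132578726-132580647. The mean of the 4 other tissues includes testis, so the 2 fits share their libraries. With equal circRNA totals 4 members were higher in brain and 24.9% of all circRNAs tested were, and with equal medians 4 and 22.8%. In the higher calls the gap between members and background was thus no longer there. Lower in brain were 9 members with equal totals (10.0% of all tested) and 12 with equal medians (29.8%), counts that the read filter limits in the same way. edgeR with TMM on the recovered reads called 5 members higher in brain (45.9% of all tested) and 0 lower (1.89%), and 10 higher in testis (29.4%) and 0 lower (5.43%).

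The brain circles were also read in hippocampus, at the levels given further on by stage. chr3:120475600-120502665 (minus strand, 27.1 kb), between Ptbp2 and Tmem56, had 20.0, 20.4 and 23.0 RPM in brain, against 1 read in 1 lung library and 0 in the other 11 libraries. Its difference was 4.13 ± 0.27 (log2, SE, limma adjusted p = 5.07e-09). It was the member with most reads of all, 338, and all 3 brain libraries were above every other tissue library.

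chr2:158208240-158208899 (plus strand, 0.660 kb) lay 1464 bases from the circles of Snhg11, a long noncoding RNA gene that hosts small nucleolar RNAs. It had 28.2, 16.7 and 19.2 RPM in brain, against a mean of 0.317 RPM in the 12 other libraries (3.97 ± 0.29 log2, SE, limma adjusted p = 2.05e-08). The gene Snhg11 itself had 368 ± 199 TPM in brain (SD, n = 3) and a mean of 6.50 TPM over the other tissues. Circle and gene were both higher in brain, and whether the circle belongs to the Snhg11 transcript was not tested.

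chrX:58436423-58439349 (plus strand, 2.93 kb) had 22.3, 14.8 and 11.5 RPM in brain and 0 reads in the 12 libraries of other tissues, at least 58.4-fold higher in brain (3.84 ± 0.20 log2, SE, limma adjusted p = 5.68e-10). It lies between the hosts Gm14661 and Mir741. RefSeq lists 58 genes between those symbols, Cdr1 and Cdr1os, known as the locus of an abundant brain circRNA, among them. These 2 were looked up after the values were seen, and no mm9 annotation was used to place the circle in either. chr4:141966372-141967259 (minus strand, 0.888 kb), between Kazn and Prdm2, had 8.23, 20.4 and 30.7 RPM in brain, against 1 read in heart (3.86 log2, limma adjusted p = 2.01e-07). Its brain libraries spread the most of the 4 whose groups did not overlap.

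The remaining brain call changed with the scaling. chr3:75162269-75201023 (minus strand, 38.8 kb), between Zbbx and Serpini1, had 7.06, 7.42 and 15.3 RPM in brain and 12.4, 25.9 and 16.8 RPM in lung. Testis had 1.44, 0 and 1.15 RPM. Lung was thus the higher tissue on average, and brain was above the mean of the 4 others (1.99 log2, limma adjusted p = 8e-05). With libraries scaled to equal medians the difference was -0.22, and with equal circRNA totals 0.47 (limma adjusted p = 0.345).

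Liver, heart and lung gave few members of their own. chr6:122157915-122159124 (plus strand, 1.21 kb), between Iqsec3 and Rimklb, was read in liver alone, with 9.00, 4.80 and 9.41 RPM. It is counted among the lower calls of both testis and brain (-0.72 log2 in each), where it had 0 reads, as it had in heart and lung. chr16:44028792-44040271, inside Gramd1c, had 4.09 ± 1.61 RPM in liver and 1.34 ± 1.45 RPM in testis (SD, n = 3 each). chr11:16587940-16599488 averaged 1.71 RPM in liver. Of the 3, the first had no read in any other mouse library.

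In heart, chr16:57569763-57572538 had 13.1, 2.14 and 1.38 RPM, with 17, 1 and 1 reads, and lung had 3.71, 1.85 and 0 RPM. chr3:105357166-105358245, 94327 bases from Kcnd3, a potassium channel gene, had 1.69 ± 0.401 RPM in heart (SD, n = 3) on 1 or 2 reads a library. In lung, after chr3:75162269-75201023, came chr9:62941234-62945728 with 6.18, 0 and 2.10 RPM. Then came chr3:75162269-75186001, which shares its start with the chr3 circle of longer span, with 0, 1.85 and 6.30 RPM. Both lung circles had a library at 0, and their highest values stood on 5 and 3 reads.

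In hippocampus, host-less circles were higher at later stages, in sum and as a share. The summed level was 143 ± 4.64 RPM at E18, 192 ± 10.1 at P1, 216 ± 3.62 at P10 and 382 ± 18.4 at P30 (SD, n = 2 each). The share of circRNA RPM was 1.28 ± 0.0957% at E18, 1.52 ± 0.0144% at P1, 2.23% at P10 and 2.11 ± 0.0494% at P30 (SD, n = 2 each). P10 and P30 were both above E18 and P1 in every library, and the share did not rise further after P10. Cell markers moved too. Summed TPM of the neuron markers was 3188 to 3519 at P30 and 515 to 555 at E18. That of progenitor and immature neuron markers (Nes, Sox11, Dcx, Top2a, Mki67) was 28.3 to 32.3 at P30 and 681 to 876 at E18. Astrocyte markers (Gfap, Aqp4, Slc1a2, Aldh1l1) summed to 1227 to 1268 TPM at P30 and 137 to 143 at E18, microglia markers (Cx3cr1, Csf1r, Aif1, C1qa) to 202 to 220 and 52.1 to 65.7, and blood markers (Hba-a1, Hbb-b1, Alas2) to 629 to 897 and 1651 to 1843. Their part in the circRNA differences was not tested.

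P30 was set against E18 over the 1556 circRNAs with at least 20 reads in the 8 hippocampal libraries. Of the members, 26 were tested and 1652 were not. By limma (adjusted p under 0.05), 17 members were higher at P30, where 26.4% of all circRNAs tested were, and 0 were lower, where 5.72% of all tested were. At an unadjusted p under 0.05, 19 were higher and 0 lower, and edgeR with TMM on the recovered reads called 10 higher (15.4% of all tested) and 0 lower (10.2%). The P30 and E18 libraries did not overlap for 21 members, where they did not for 65.9% of all circRNAs tested. The difference was above 0 for 25 of the 26 members (96.2%) and for 68.6% of all tested, with medians of 2.10 and 0.62 (log2). The P30 libraries held 30684 and 30150 back-splice reads, and the E18 libraries 21105 and 17355. A sparse member that is high at P30 thus passes the filter through P30 more easily. These counts and medians describe the members that passed and no others. With libraries scaled to equal circRNA totals 10 members were called higher, against 13.0% of all tested, and with equal medians 9, against 12.5%. Without the second P30 library 15 members were testable and 5 were called higher, against 13.2% of all tested.

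The largest stage difference was that of chr2:158208240-158208899, the circle near Snhg11. It had 0.545 and 0.624 RPM at E18, 0 and 0.816 at P1, 4.03 and 4.4 at P10, and 25.5 and 22.0 at P30. The difference of P30 from E18 was 4.38 ± 0.58 (log2, SE, limma adjusted p = 4.47e-06). Each stage after P1 was above the one before in both libraries. The gene Snhg11 averaged 11.1 TPM at E18, 21.6 at P1, 62.4 at P10 and 172 at P30, in the same order from P1 on.

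4 of the 6 largest stage differences were in circles with 0 reads at E18. chr7:98774839-98775323 (plus strand, 0.485 kb) lies within Dlg2, the gene of a postsynaptic scaffold protein, and had 0 reads at E18 and P1, 1.15 and 2.44 RPM at P10, and 7.53 and 7.94 RPM at P30. It was at least 8.87-fold higher at P30 (3.85 ± 0.66 log2, SE, limma adjusted p = 0.000112). Dlg2 itself averaged 209 TPM at P30 and 109 TPM at E18. chr16:60837599-60838009 (plus strand, 0.411 kb), between Epha6 and Nsun3, had 0 reads at E18 and P1, 3.46 and 3.42 RPM at P10, and 9.27 and 5.50 RPM at P30 (at least 8.47-fold, 3.74 log2, limma adjusted p = 0.000141). Both circles were first seen at P10.

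chr4:42884429-42886227 (plus strand) had 4.06 and 4.28 RPM at P30 and 0 at E18, with 1.57 ± 0.0885 RPM at P1 and 0.288 ± 0.407 RPM at P10 (SD, n = 2 each; 3.04 log2, limma adjusted p = 0.0012). It did not climb step by step. chr15:5272244-5283050 (plus strand, 10.8 kb), between Ttc33 and C9, reached its level by P10, with 4.03 and 5.87 RPM at P10, and 2.32 and 6.11 RPM at P30, against 0 at E18 (2.93 log2, limma adjusted p = 0.00337). chrX:58436423-58439349 had 0 and 1.87 RPM at E18, 0 and 4.08 at P1, 2.30 and 2.93 at P10, and 8.11 and 9.16 at P30 (2.95 ± 0.78 log2, SE, limma adjusted p = 0.00603). Its P1 libraries stood on both sides of the P10 ones.

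**Figure D5:**
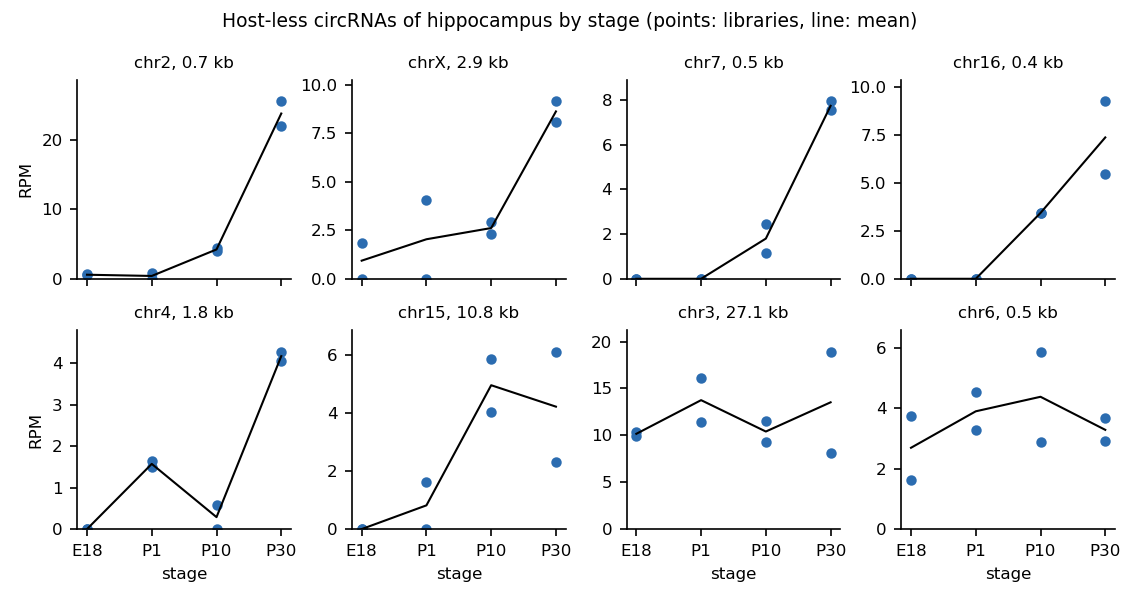
RPM of 8 host-less circRNAs in the 8 hippocampal libraries by stage, E18, P1, P10 and P30, with libraries as points and the stage mean as a line. The first 6 panels are the largest differences of P30 from E18, and the last 2, of chr3 and chr6, show libraries of P30 and E18 that overlap.

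Some abundant members did not pass the test between stages. chr3:120475600-120502665 had 10.3 and 9.98 RPM at E18, 16.1 and 11.4 at P1, 11.5 and 9.29 at P10, and 8.11 and 18.9 at P30 (0.28 ± 0.37 log2, SE, limma adjusted p = 0.605). chr6:39954144-39954670 (plus strand, 0.527 kb), inside Gm5567, had 2.90 and 3.66 RPM at P30 and 1.63 and 3.74 RPM at E18 (0.31 log2, limma adjusted p = 0.703). chr10:109653758-109654166 (minus strand, 0.409 kb), inside Nav3, a neuron navigator gene, had 5.80 and 1.83 RPM at P30 and 3.81 and 3.74 RPM at E18 (-0.15 log2, limma adjusted p = 0.89). The sign of each of these 3 differences changed under another scaling or with 1 library left out. chr15:95566944-95567727 (minus strand, 0.784 kb), of like abundance, was called. It had 8.69 and 8.55 RPM at P30 and 0.545 and 1.25 RPM at E18 (2.68 log2, limma adjusted p = 0.00181).

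Synaptosomes, a fraction of pinched-off nerve endings, held more host-less circular RNA by RPM than the homogenate. The sums were 589 RPM from 1073 reads in synaptosomes and 437 RPM from 976 reads in homogenate, a ratio of 1.35 (exact 95% interval 1.23 to 1.47). Host-bearing circles had a ratio of 1.46. With 1 library each there is no replicate check, and the intervals cover counting error only. Astrocyte markers summed to 7099 TPM in synaptosomes and 1048 TPM in homogenate, microglia markers to 665 and 160 TPM, blood markers to 15.2 and 298 TPM, and neuron markers to 2042 and 3952 TPM. The part of these cells in the ratios was not tested.

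Members did not move together between these fractions. Of 33 with at least 10 reads in the pair, the interval lay above 1 for 3, where it did for 16.4% of all circRNAs with as many reads, and below 1 for 2, where it did for 1.27%. Set against the ratio of all circRNAs, 1.46, the interval lay above it for 2 members (5.65% of all) and below it for 7 (5.08% of all). With equal circRNA totals the summed ratio was 0.922. chr3:120475600-120502665 had 34.0 RPM in synaptosomes and 13.9 RPM in homogenate, a ratio of 2.45 (1.57 to 3.9). chr7:67100531-67101686 (minus strand, 1.16 kb), between the symbols SNORD115 and Gm10297, had 20.9 and 7.17 RPM, a ratio of 2.91 (1.58 to 5.59). chr14:14934116-14936021, which overlaps Atxn7, had 9.88 RPM in synaptosomes and 3.59 RPM in homogenate, a ratio of 2.76 (1.14 to 7.33). In the other direction, chr2:158208240-158208899 had 4.39 RPM in synaptosomes and 19.7 RPM in homogenate, a ratio of 0.223 (0.0906 to 0.478). chr10:72745496-72746356, in Pcdh15, had 1.10 and 5.38 RPM, a ratio of 0.204 (0.0222 to 0.917). The most abundant brain circles of chromosomes 3 and 2 thus stood on opposite sides of 1. Among the pair's extremes, chrX:102371329-102371596 (3.37, 0.998 to 14.5) and chr18:26302376-26304101 (0.245, 0.0261 to 1.15) had intervals that include 1.

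CA1 neuropil, the layer of dendrites and axons, was set beside CA1 somata, the cell body layer. The sums were 645 RPM from 595 reads in neuropil and 401 RPM from 434 reads in somata, a ratio of 1.61 (1.42 to 1.82). Host-bearing circles had a ratio of 2.06, so host-less circles were 2.44% of circRNA RPM in neuropil and 3.11% in somata. Astrocyte markers summed to 2108 TPM in neuropil and 804 TPM in somata, microglia markers to 490 and 206 TPM, blood markers to 1048 and 420 TPM, and neuron markers to 2431 and 3234 TPM, and their part was not tested. Of 18 members with at least 10 reads, the interval lay above 1 for 3, where it did for 32.1% of all circRNAs with as many reads, and below 1 for 0, where it did for 0.00%. Against the ratio of all circRNAs, 2.05, the interval lay above it for 0 members (2.48% of all) and below it for 2 (2.48% of all), and with equal circRNA totals the summed ratio was 0.785.

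The 3 above 1 included the same chromosome 3 circle. chr3:120475600-120502665 had 30.3 RPM in neuropil and 10.2 RPM in somata, a ratio of 2.98 (1.44 to 6.64). chr7:67085706-67118536 (minus strand, 32.8 kb) had 15.2 and 3.70 RPM, a ratio of 4.10 (1.29 to 17.1). chr15:5272244-5273612, which shares its start with chr15:5272244-5283050, had 9.75 RPM in neuropil and 1.85 RPM in somata, a ratio of 5.27 (1.09 to 50.2). chr2:158208240-158208899 had 19.5 and 23.1 RPM, and chr16:5956342-5956956 had a ratio of 0.391 (0.0680 to 1.57).

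Circular RNA has no poly(A) tail, and the poly(A) library held little of it. The poly(A) library of 14-week brain held 127 back-splice reads, 25 of them (19.7%) in host-less circles. The ratio of the poly(A) to the rRNA-depleted library was 0.0234 (0.0150 to 0.0349) for host-less circles and 0.00256 for host-bearing ones. Of the 25 reads, 21 were from chrX:58436423-58439349, with 12.9 RPM in the poly(A) library and 22.3 RPM in the rRNA-depleted one, a ratio of 0.579 (0.297 to 1.14). chr2:158208240-158208899 had 0 and 24 reads, and chr3:120475600-120502665 had 0 and 17 reads. A single circle therefore carried most of the host-less reads that remained after poly(A) selection.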

How the data were processed

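RNA from mouse tissues, hippocampal stages and hippocampal fractions was sequenced in 28 Illumina libraries, and 2 deposited kinds of value were used. The first kind is the circRNA table, in RPM of back-splice reads, which the authors normalised. Neither the circRNA caller nor the total behind the RPM is given in the sources used here. The second is the gene table, in TPM, which the authors deposited ready made. The deposited circRNA lists give class, strand, a block count and a score whose meaning they do not state, and the score was not used. Per the submitters' processing notes, CASAVA 1.8.2, TopHat2 2.0.6 and Cufflinks 2.2.1 were used with the build mm9. The rat samples and the long-read sample are not analysed here.

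Whole reads were recovered by dividing each library by its smallest step. In each of the 28 libraries 100% of values came out whole within a tolerance of 0.1, and 1 read was worth 0.448 to 2.14 RPM in the rRNA-depleted libraries. Intervals are exact at 95% and, like the floor of 3 reads, cover counting error alone, since reads without molecular identifiers are not independent molecules. A host's position was taken as the mm9 extent of its host-bearing circRNAs in the same table, with circles of 1 symbol over 2 Mb apart kept as separate spans. These spans are shorter than the genes. Gene order came from RefSeq (GRCm38.p6) by symbol, with none of its coordinates.

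Differences were tested with limma 3.58.1 in R 4.3.3 on log2(RPM + pseudocount), with a trend, two-sided, and Benjamini-Hochberg adjustment over every circRNA of the table with at least 20 reads in the fit. The threshold was 0.05. The pseudocount was 1.18 RPM for tissues and 0.578 for hippocampal stages. A fold on this scale understates the change of low circRNAs. The step was checked on simulated counts, where each circRNA had the same mean in every group except for those raised in the tested group. Members read in a single tissue are unlike these counts, so the check does not cover them. Samples were grouped by the labels. Alternatives were other pseudocounts, read filters and scalings, edgeR 4.0.16 on the recovered reads, a block by replicate number, the 20-week or end-stage libraries alone, and each library left out. Three-library tissue groups span 2 ages. The labels do not say whether replicate libraries came from separate animals, so p-values measure the spread between these libraries.

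Members and lists were chosen with earlier results of these data known. The named circRNAs are the 12 highest by mean RPM, the 6 largest differences in each direction and test, the 3 highest of each tissue and of hippocampus, the 3 highest and lowest ratios of each single-library pair, the most abundant member of the 5 loci with most members, and the most abundant of each class. The oligodendrocyte markers are not reported here. No mm9 genome was used, so no sequence is printed.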

Additional observations from a re-analysis of the deposited data

How the results depend on the processing

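Read depth was the main limit. Of 1678 members 1661 had too few reads for the tissue fits and 1652 for the stage fit, and the counts moved most with the read filter. Shares in brackets are of all circRNAs tested. With at least 10 reads, of 45 members tested 17 were higher in brain (61.9%), and 22 higher (21.8%) and 11 lower (14.0%) in testis. With a filter on libraries above 0, of 150 tested 61 were higher (47.7%) and 16 lower (2.82%) in brain and 59 higher (13.0%) and 15 lower (5.49%) in testis, and of 449 tested 39 were higher (6.27%) and 7 lower (1.44%) at P30. With no filter, of 1091 tested 118 were higher (19.0%) and 4 lower (0.148%) in brain and 81 higher (4.38%) and 2 lower (0.392%) in testis, and of 916 tested 0 were higher at P30 (0.0454%). A pseudocount 5 times as large left 5 lower in brain, and a pseudocount 5 times as small left 11 higher at P30. edgeR called 0 lower in brain and in testis, with and without TMM, and 10 higher at P30 with TMM. Equal circRNA totals gave 3 lower in testis and 10 higher at P30, and equal medians 9 higher at P30. The split of higher and lower calls was 5 and 8 in brain, against 4 and 9 with equal totals and 4 and 12 with equal medians. The 20-week libraries alone gave 4 lower in brain and 4 higher in testis, and E18 and P30 alone 8 higher. The causes were not tested.

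Leaving out 1 library in turn gave 4 to 5 higher and 5 to 7 lower in brain, 4 to 10 higher and 3 to 6 lower in testis, and 5 to 15 higher and 0 to 0 lower at P30. The low of 4 in testis was without the 14-week testis library, and the low of 5 at P30 without P30 replicate 2. Summed RPM then ran from 612 to 637 in brain, 441 to 878 in testis, 139 to 146 at E18 and 369 to 395 at P30, and shares from 2.13% to 2.45%, 6.61% to 7.21%, 1.21% to 1.35% and 2.07% to 2.14%.

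No pairing by replicate number was seen: correlations of same-numbered deviations ran from -0.04 to 0.05. Counting error at such low counts could hide a pairing, so these values do not exclude one. With the replicate block the counts were 5 and 8 in brain, 10 and 6 in testis and 17 and 0 at P30. With E18 and P30 alone the block gave 7 higher and the crossed block, added after seeing the data, 7. Between the 20-week libraries of brain (chi-square p = 0.0663), heart (0.0923), liver (0.288) and lung (0.815) no difference beyond counting error was found. The libraries of 20-week testis (0.00148), E18 (8.55e-05), P1 (0.00133), P10 (5.15e-07) and P30 (6.65e-06) differed by more than counting error. These p-values also follow the number of circRNAs, 28 in liver, 32 in heart and 1141 at P30. Chi-square per degree of freedom ran from 0.805 (lung) to 1.35 (heart) in the first set. In the second it ran from 1.17 (P1) to 1.39 (20-week testis), so better agreement in the first set does not follow. Averaging the 20-week pairs gave 5 and 7 in brain and 10 and 4 in testis.

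Summed RPM was 543 in brain, 108 at E18 and 330.4 at P30 for listed (CBR) members, 84.1 in brain, 83.1 in testis, 34.8 at E18 and 51.1 at P30 for those in the table only, and 259 in brain, 47.4 at E18 and 196 at P30 for those with at least 20 reads. Shares for listed members were 6.26% in testis, 0.969% at E18 and 1.82% at P30, for table-only members 0.308%, 0.716%, 0.311% and 0.283% in brain, testis, E18 and P30, and with at least 20 reads 0.940%, 2.85%, 0.427% and 1.08%. Leaving out the 10 most abundant gave 528 RPM and 1.93% in brain, 4.87% in testis, 126 RPM and 1.13% at E18, and 322 RPM and 1.78% at P30. Overlap with host spans was 229 on the same strand and 981 within 100 kb. With equal circRNA totals the pair ratios were 0.922 for synaptosomes, 0.785 for neuropil and 7.53 for poly(A). The class MEA alone gave no value, since it held 0 members.

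The sign reversed for chr3:75162269-75201023 in brain with equal medians (-0.22). At P30 it reversed for chr3:120475600-120502665 (-0.38 with equal totals, -0.36 with equal medians, -0.20 with edgeR and TMM, and -0.31 to 0.86 with 1 library left out), for chr6:39954144-39954670 (-0.26, -0.32 and -0.28 in the same settings, and -0.17 to 0.80 with 1 library left out) and for chr10:109653758-109654166 (0.0301 with edgeR and no TMM, and -0.85 to 0.55 with 1 library left out). None of these 3 passed the test at P30. Of the single-circle values outside the left-out libraries, 453 kept their direction and side of the threshold, 74 lost the call and 4 gained one.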

Other observations

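Host-less circles were denser in some parts of the genome than in others, and 1 stretch was looked at after its values were seen. In windows of 5 Mb, 453 windows held a member and the median window held 3. The fullest window, on chromosome 7, held 30, the next, on chromosome 12, held 28, and one on chromosome 18 held 23. The chromosome 18 window contains the locus of 16 overlapping members between Celf4 and Pik3c3, so members of a window are not independent. These windows were not compared with the density of host-bearing circles.

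The Meg3 domain, known as an imprinted domain, lies elsewhere on chromosome 12 than the full window named above. It held 6 members between Meg3 and Ppp2r5c, 5 of them on the plus strand. A single circle, chr12:110956324-110956709, gave 87 of their 107 reads. Summed, the 6 members had 4.70, 7.42 and 7.66 RPM in brain and 0 RPM in each testis library, and 4.64 and 5.50 RPM at P30, against 0 and 1.25 RPM at E18. The 12 host-bearing circles of the same stretch had 3.53, 7.42 and 9.58 RPM in brain and also 0 RPM in each testis library.

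Several low members came from 1 library. All 13 reads of chrX:10173402-10173587, 922 bases from Tspan7, were in the 14-week brain library, as were 13 of the 14 reads of chr14:73766178-73768131, which overlaps Rb1 and Itm2b.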
